A study of Mus musculus with 18 samples.

Results

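The genes described here encode voltage-gated calcium, sodium and potassium channels and the other potassium channels, with their auxiliary subunits. They were taken by name, as the genes whose mouse symbol begins with Cacn, with Kcn, or with Scn followed by a digit. The rule gave 138 genes, of which 76 had an expected count of 90 or more summed over all 18 libraries, and the 62 others fell below that sum. Just inside the limit were Kcnd3 with 100 counts and Kcnn4 with 103, and just outside were Kcnk2 with 87 and Cacna1f with 76. Of the 76 genes, 75 were protein-coding and the other was Kcnq1ot1, a very long antisense RNA of the Kcnq1 locus. All 76 passed the low-count filter of the test, which kept 17338 of the 55487 annotated genes.

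RNA was sequenced from alpha, beta and delta cells of mouse pancreatic islets (strain C57BL/6, given in the study's methods as males of the C57BL/6JRj line aged 12 weeks). Whole islets were cultured with IFNγ at 5 ng/mL for 20 h or without it as control, then dissociated and sorted by flow cytometry, with 3 libraries for each of the 6 groups of cell type and treatment. No transgene or mutation is named for any group. The sort took EpCam-positive cells that lacked blood and endothelial surface markers and separated them with antibodies to CD24, CD71 and CD49f. Each library is thus a bulk of the cells in 1 gate. Neither the labels nor the methods say how many animals entered a library, and p-values measure the spread between these libraries.

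Islet endocrine cells are electrically excitable. In beta cells, glucose metabolism closes ATP-sensitive potassium channels, the membrane depolarises, and voltage-gated sodium and calcium channels fire action potentials whose calcium entry releases insulin. Voltage-gated and calcium-activated potassium channels then repolarise the membrane, and two-pore-domain and inward rectifier channels set its resting level. Alpha and delta cells fire spontaneous action potentials by related means and release glucagon and somatostatin. Most of these channels combine pore-forming subunits, which carry the current, with auxiliary subunits, which alter gating and trafficking.

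The libraries held 6128845 to 11531734 expected counts, of which the 76 genes took 0.172 to 0.533%. Summed TPM of 10 alpha cell markers was 38620 to 77570 in alpha libraries and at most 2047 elsewhere. Summed TPM of 10 beta cell markers was 54940 to 75380 in beta libraries and at most 14820 elsewhere, the highest being alpha control 2 (alpha controls 1 and 3 were at 3922 and 2324), and that of 9 delta cell markers was 8662 to 37720 in delta libraries and at most 172.7 elsewhere. Each gate thus held its labelled cells, with other cell types beside them. The 28 acinar genes summed to 467.5 to 1811 TPM in the 6 delta libraries, to 5.15 to 44.5 in alpha and to 8.59 to 1373 in beta libraries, with beta control 1 the highest of the beta libraries. The 5 polypeptide and ghrelin cell genes summed to 2975 to 13770 TPM in delta, 2634 to 8978 in alpha and 162.6 to 1158 in beta libraries. The 12 duct genes reached 271.8 to 574.1 TPM in alpha libraries and 103.6 to 216.7 in the others. The 10 endothelial genes summed to 0.85 to 3.08 TPM, with 1 to 7 of them at 0, and the 11 immune genes to 0.76 to 3.41 TPM, with 5 to 8 at 0. The 17 mesenchymal, Schwann and neural genes summed to 10.63 to 31.66 TPM, with 4 to 11 at 0. As in any bulk sample, fewer cells of a type and less RNA per cell cannot be told apart.

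The promoters of a member high in alpha and beta cells, of one high in beta cells, of one high in delta cells and of the member highest in every group are shown first, as 250 bases before to 50 bases after the start of the transcript in RefSeq (build GRCm38.p6). Capitals mark each CG dinucleotide. Kcnh6, an ERG-type potassium channel, starts on the plus strand and its window is chr11:106007898-106008197. Kcng3, a silent potassium channel subunit, lies on the minus strand with its window at chr17:83631846-83632145. Cacna2d2, an alpha2delta subunit of calcium channels, lies on the plus strand with its window at chr9:107399630-107399929. Kcnk16, a two-pore-domain potassium channel also called TALK-1, lies on the minus strand with its window at chr14:20269220-20269519.
Kcnh6: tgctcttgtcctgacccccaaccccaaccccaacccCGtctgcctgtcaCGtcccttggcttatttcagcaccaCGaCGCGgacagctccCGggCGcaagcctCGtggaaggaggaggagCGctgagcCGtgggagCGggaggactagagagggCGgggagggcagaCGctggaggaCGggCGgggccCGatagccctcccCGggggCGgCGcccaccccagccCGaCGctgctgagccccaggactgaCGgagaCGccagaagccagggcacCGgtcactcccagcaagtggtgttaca
Kcng3: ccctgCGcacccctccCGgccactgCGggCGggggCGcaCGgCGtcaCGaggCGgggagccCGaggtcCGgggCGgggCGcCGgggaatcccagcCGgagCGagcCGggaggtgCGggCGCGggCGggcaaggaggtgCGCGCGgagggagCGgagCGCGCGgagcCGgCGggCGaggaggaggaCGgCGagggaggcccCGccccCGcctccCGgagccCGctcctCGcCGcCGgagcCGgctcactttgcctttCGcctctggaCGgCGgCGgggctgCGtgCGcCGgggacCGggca
Cacna2d2: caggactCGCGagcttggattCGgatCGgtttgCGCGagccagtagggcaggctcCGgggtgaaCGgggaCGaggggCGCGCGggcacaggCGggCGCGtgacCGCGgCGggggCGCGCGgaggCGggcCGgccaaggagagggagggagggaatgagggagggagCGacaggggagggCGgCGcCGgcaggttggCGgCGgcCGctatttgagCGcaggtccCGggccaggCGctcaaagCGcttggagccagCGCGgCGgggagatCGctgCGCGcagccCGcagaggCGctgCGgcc
Kcnk16: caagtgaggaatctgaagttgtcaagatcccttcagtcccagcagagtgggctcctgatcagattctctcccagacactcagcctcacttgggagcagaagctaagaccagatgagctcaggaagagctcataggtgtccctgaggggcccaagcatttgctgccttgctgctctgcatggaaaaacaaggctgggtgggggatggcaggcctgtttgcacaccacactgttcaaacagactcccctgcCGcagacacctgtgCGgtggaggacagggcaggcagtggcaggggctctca

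The windows of Kcnh6, Kcng3 and Cacna2d2 held 24, 49 and 43 CG dinucleotides, whereas that of Kcnk16 held 2. RefSeq promoter windows were at hand for 56 of the 76 genes, and the first listed window was used for the 16 genes with more than 1. Over the 56 windows the median was 16 CG dinucleotides (range 1 to 49), against 7 over the windows of 27025 genes. Those 27025 genes were taken without a count limit, unlike the 56, so the 2 sets also differ in that respect. The TATA box letters TATAAA, searched on both strands, were found in 2 of the 56 windows (3.57%), in 14.2% of all windows and in none of the 4 shown. The channel genes were long, with a median span of 87723 bases against 16835 over all genes tested.

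Most of these genes differed in level between the cell types. Among the controls, 33 of the 76 genes differed between alpha and beta cells (22 higher in alpha, 11 higher in beta), where 19.7% of all genes tested did (9.56% higher and 10.1% lower in alpha). Between delta and beta cells 46 differed (33 higher in delta, 13 higher in beta) against 20.5% of all genes (11.4% and 9.11%), and between delta and alpha cells 41 differed (25 higher in delta, 16 higher in alpha) against 19.7% (10.9% and 8.77%). The median absolute log2 fold change of the 76 genes was 1.19, 1.63 and 1.19 in these comparisons, and 0.48, 0.48 and 0.51 over all genes. At least 1 of the 3 comparisons called 58 of the 76 genes (76.3%), against 35.5% of all genes tested and 35.4% of those with 90 or more counts. A gene was called at an adjusted p under 0.05 by edgeR's quasi-likelihood test on counts, and TPM, which divides by transcript length, is used for the levels below.

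**Figure D1:**
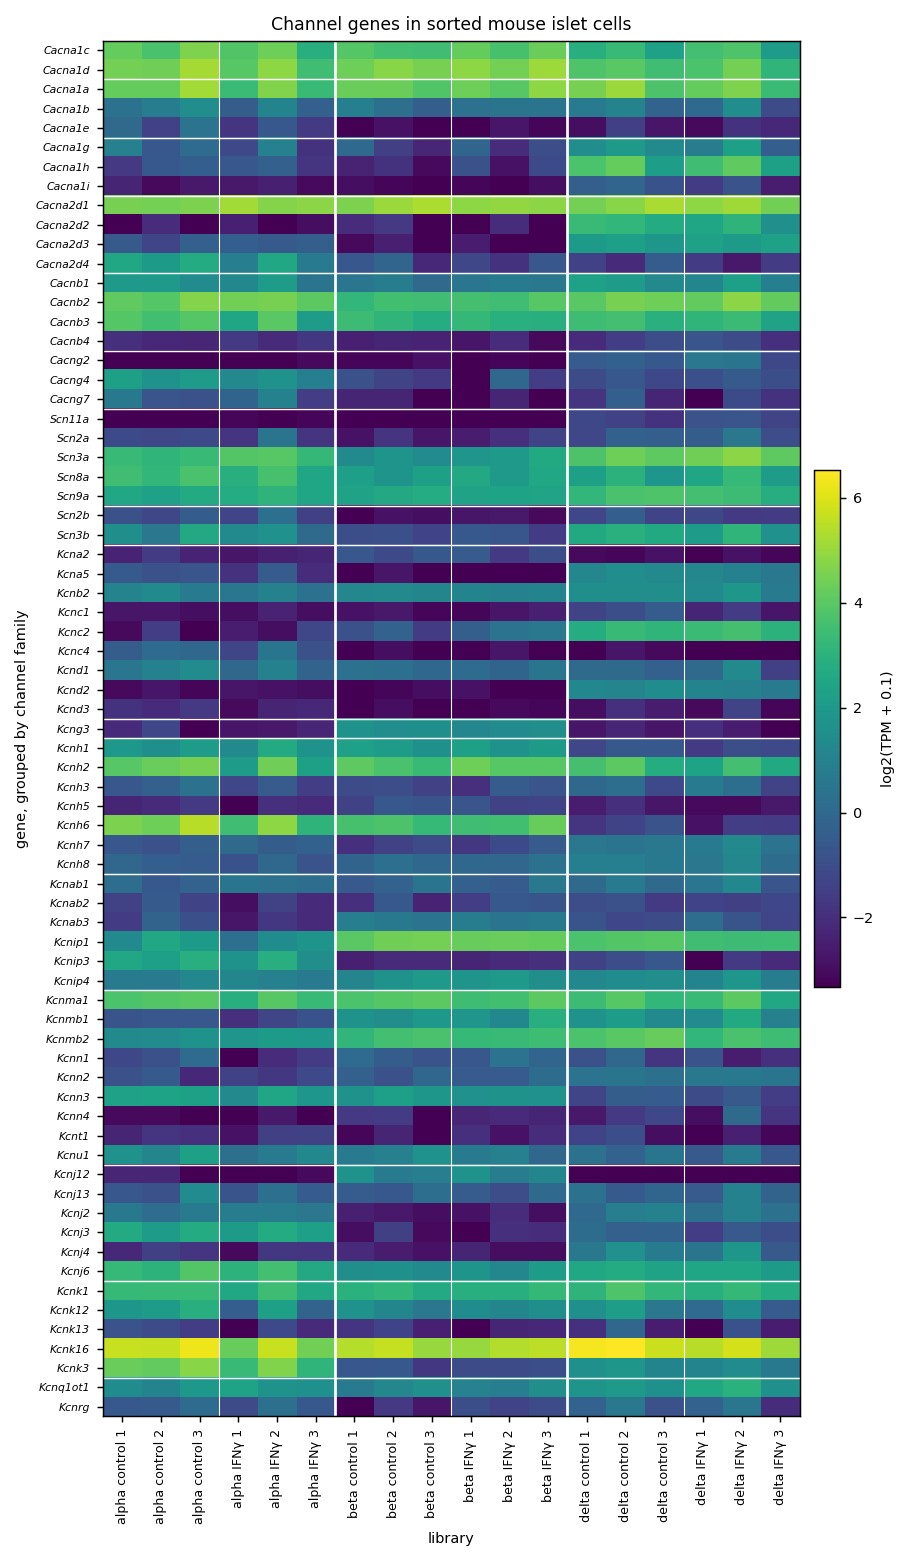
Level of 71 of the 76 channel genes (rows, grouped by channel family) in the 18 libraries (columns, grouped by cell type and treatment), as log2(TPM + 0.1) on the colour scale. Kcnk16 has the highest group mean in all 6 groups (30.6 to 76.2 TPM). Kcnd2 and Cacna2d2 are lighter in the 6 delta columns than in the 12 others.

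Genes that were higher in 1 cell type than in both others among controls numbered 18 in delta cells (23.7% of 76, against 5.17% of all genes tested), 10 in alpha cells (13.2% against 3.35%) and 5 in beta cells (6.58% against 4.15%). The delta-selective genes were Cacna1g, Cacna1h, Cacna1i, Cacna2d2, Cacna2d3, Cacng2, Kcna5, Kcnc1, Kcnc2, Kcnd2, Kcnh7, Kcnh8, Kcnj4, Kcnk1, Scn3a, Scn3b, Scn9a and Scn11a. Those of alpha cells included Cacna1e, Cacna2d4, Cacng4, Kcnc4, Kcnh6, Kcnip3, Kcnj3, Kcnj6 and Kcnk3, and those of beta cells included Kcna2, Kcnab3, Kcng3 and Kcnj12. In the IFNγ-treated libraries the same rule gave 19 genes in delta cells (25%, against 5.31% of all genes), 7 in alpha cells (9.21% against 3.09%) and 5 in beta cells (6.58% against 8.62%), of which 16, 7 and 5 were also on the control lists. The 5 beta-selective channel genes were the same in both, while the share of all genes went from 4.15 to 8.62%. Without beta control 1 and delta control 3, the controls highest in acinar RNA, 31, 38 and 36 genes were called in the alpha against beta, delta against beta and delta against alpha comparisons, against 17.6, 14.2 and 13.4% of all genes in that fit. The part of polypeptide cell RNA in the delta values was not tested.

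Of the 43 other genes, 5 were lower in alpha cells than in both other types (Cacna2d1, Kcnip1, Kcnip4, Kcnmb1 and Kcnmb2), 6 were lower in beta cells (Cacnb1, Cacng7, Kcnj2, Kcnrg, Scn2a and Scn2b) and 5 in delta cells (among them Cacna1c, Kcnh1 and Kcnn3). A further 9 were called in 1 comparison alone (Cacna1d, Cacnb2, Kcnb2, Kcnd3, Kcnh5, Kcnk16, Kcnn2, Kcnt1 and Scn8a). The remaining 18 passed no comparison of control cells. Among these were Cacna1a, Cacna1b, Cacnb3, Cacnb4, Kcnab1, Kcnab2, Kcnd1, Kcnh2, Kcnh3, Kcnj13, Kcnk12, Kcnk13, Kcnma1, Kcnn1, Kcnn4, Kcnq1ot1 and Kcnu1.

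Among the calcium channels, the L-type pore genes Cacna1d and Cacna1c, which carry the calcium current that triggers insulin release, were transcribed in all 3 cell types. Cacna1d stood at 20.4, 27.4 and 22.4 TPM in beta controls, 22.2, 21.1 and 36.4 in alpha controls, and 13.8, 15.9 and 11.4 in delta controls. Its delta libraries all lay below the beta libraries (log2 fold change -0.62 ± 0.15 SE, adjusted p = 0.00605, and -0.55 with adjusted p = 0.0625 without the 2 controls highest in acinar RNA). Cacna1c was lower in delta (7.39 ± 2.71 TPM, SD, n = 3) than in beta (12.8 ± 2.22) and alpha controls (18.4 ± 5.88), with log2 fold changes of -0.98 ± 0.26 (adjusted p = 0.00944) and -0.94 ± 0.26 (adjusted p = 0.0141). The first of these calls was lost without beta control 1 (adjusted p = 0.0537), and the second without delta control 3 (0.0729) or alpha control 3 (0.0647). The P/Q-type pore gene Cacna1a (18 to 24.1 TPM in the 3 control groups) and the N-type pore gene Cacna1b (1.2 to 1.89 TPM) passed no control comparison.

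The R-type and T-type pore genes were each higher in 1 cell type than in both others. Cacna1e, the R-type pore, had 184 counts in alpha controls, 41 in delta controls and 5 in beta controls, with mean levels of 0.833, 0.113 and 0.0133 TPM. It was higher in alpha than in beta cells (log2 fold change 5.00 ± 0.84, adjusted p = 0.000276), while its alpha over delta call was lost without delta control 1 (adjusted p = 0.0641) or alpha control 3 (0.0739). All 3 T-type genes, whose channels open at low voltage and shape spontaneous firing, were higher in delta cells than in both other types. Cacna1h stood at 13.1, 18.1 and 4.35 TPM in delta controls, 0.21, 0.55 and 0.67 in alpha controls, and 0.09, 0.17 and 0.02 in beta controls. The lowest delta library lay above every alpha and beta library, and the log2 fold changes were 6.19 ± 0.46 over alpha (adjusted p = 3.03e-08) and 7.64 ± 0.52 over beta (adjusted p = 7.15e-09). Cacna1i was lower throughout, at 0.68, 0.83 and 0.46 TPM in delta controls and at most 0.1 in any alpha or beta control (5.03 ± 0.85 over beta, adjusted p = 0.000231). Cacna1g was the T-type gene with the smallest contrast, at 2.73, 3.76 and 2.51 TPM in delta controls, 1.86, 0.54 and 1.0 in alpha and 0.92, 0.26 and 0.11 in beta controls. Its delta over beta difference was 3.09 ± 0.57 (adjusted p = 0.000557), and its delta over alpha difference of 1.82 ± 0.53 (adjusted p = 0.0203) was not called without delta control 1 or 2 or alpha control 1 or 2 (adjusted p = 0.0501 to 0.0842).

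The alpha2delta subunits, which carry calcium channels to the cell surface, divided between the cell types. Cacna2d1 was the most abundant, at 22.9 to 32.3 TPM in the control groups, with no call between delta and beta. It was lower in alpha than in beta controls (log2 fold change -0.95 ± 0.27, adjusted p = 0.018), a call that did not hold without alpha control 3 (adjusted p = 0.0829) or beta control 3 (0.112). Cacna2d2 was at 9.96, 9.12 and 6.59 TPM in delta controls, at 0, 0.14 and 0 in alpha controls, and at 0.14, 0.21 and 0 in beta controls. Its delta libraries held 1566 counts and its alpha libraries 2, a ratio of 632 after scaling to library size (95% interval of the counts 175 to 5230, counting error only), and the log2 fold change over beta was 7.01 ± 0.63 (adjusted p = 1.55e-07). Cacna2d3 followed at 4.05, 4.67 and 3.65 TPM in delta controls, against 0.58, 0.32 and 0.7 in alpha and 0.02, 0.08 and 0 in beta controls. Cacna2d4 had the opposite order, at 5.79, 4.06 and 6.53 TPM in alpha controls, 0.54, 0.83 and 0.12 in beta and 0.28, 0.13 and 0.63 in delta controls. The alpha libraries of Cacna2d4 did not overlap the others, with log2 fold changes of 3.20 ± 0.43 over beta (adjusted p = 2.9e-05) and -3.69 ± 0.44 for delta over alpha (adjusted p = 6.18e-06).

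Of the beta subunits, which bind the pore inside the cell, Cacnb2 was higher in delta than in beta cells (19.5 ± 3.23 against 10.6 ± 1.29 TPM, log2 fold change 0.72 ± 0.18, adjusted p = 0.00579), and Cacnb3 at 8.66 to 13.9 TPM passed no control comparison. The gamma-family genes Cacng4 and Cacng2, which encode subunits that traffic AMPA receptors, pointed to different cells. Cacng4 was at 4.73, 3.1 and 4.11 TPM in alpha controls and between 0.22 and 0.54 in the 6 others (3.83 ± 0.46 over beta, adjusted p = 1.03e-05). Cacng2 had 201 counts in delta controls and none in alpha controls, so it was at least 54.1-fold higher in delta with the 3 alpha libraries together taken at a floor of 3 counts.

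Of the 5 sodium channel pore genes, 3 were higher in delta cells than in both other types. Scn3a was at 13.4, 20.5 and 16.7 TPM in delta controls, 9.76, 8.71 and 10.2 in alpha controls and 2.53, 3.35 and 2.62 in beta controls. The 3 cell types did not overlap in Scn3a, with log2 fold changes of 1.37 ± 0.22 for delta over alpha (adjusted p = 0.000188) and 1.35 ± 0.23 for alpha over beta (adjusted p = 0.000273). Scn9a, which encodes the Nav1.7 pore known from beta cells and sensory neurons, was at 4.94, 6.0 and 6.75 TPM in beta controls, 5.66, 4.82 and 6.43 in alpha and 9.18, 12.8 and 13.9 in delta controls. Delta libraries lay above all others for Scn9a (1.08 ± 0.20 over beta, adjusted p = 0.000491, and 1.43 ± 0.20 over alpha, adjusted p = 3.57e-05), and alpha and beta libraries overlapped on the TPM scale. Scn8a was at 11 ± 1.99 TPM in alpha, 4.27 ± 0.793 in beta and 5.4 ± 2.3 in delta controls. Its alpha over beta difference (0.68 ± 0.23, adjusted p = 0.0479) was lost without any 1 of 13 of the 18 libraries, among them all beta libraries and all alpha controls (adjusted p = 0.0501 to 0.166). Scn11a had 90 counts in delta controls and none in alpha or beta controls, at least 24.2-fold and 22.6-fold higher. The auxiliary subunit Scn3b, which slows the inactivation of sodium channels, was at 6.22, 7.5 and 6.16 TPM in delta controls, 2.86, 1.4 and 6.0 in alpha and 0.41, 0.43 and 0.29 in beta controls. Delta was above beta by 4.52 ± 0.37 (adjusted p = 5.88e-08) and above alpha by 2.04 ± 0.31 (adjusted p = 0.000108), and alpha control 3 lay just under the lowest delta library on the TPM scale.

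Among the pore genes of the Kv1 to Kv4 potassium channels, several were highest in delta cells. The delayed rectifier gene Kcnb2 was at 2.04, 2.3 and 2.83 TPM in alpha, beta and delta controls. It was higher in delta than in alpha cells on counts (0.97 ± 0.19, adjusted p = 0.00113) and was not called between delta and beta cells. Kcnc2, a Kv3 pore of fast-repolarising channels, was at 6.7, 9.76 and 8.57 TPM in delta controls, 0.45, 0.76 and 0.23 in beta and 0.02, 0.25 and 0 in alpha controls. Kcnd2, a Kv4 pore of the transient A-type current, was at 2.31, 2.15 and 2.63 TPM in delta controls and at most 0.05 in any other control. Both genes were separate in every delta library (delta over beta 4.36 ± 0.50, adjusted p = 3.27e-06 for Kcnc2, and delta over alpha 6.74 ± 0.56, adjusted p = 1.1e-07 for Kcnd2). Kcna5 was at 2.27, 2.73 and 2.4 TPM in delta controls, 0.6, 0.44 and 0.51 in alpha controls, and held 2 counts over the 3 beta controls against 394 in delta (ratio 149, interval 40.8 to 1230). Kcna2 was in turn highest in beta cells, at 0.54, 0.35 and 0.56 TPM against 0.09, 0.23 and 0.09 in alpha and 0.02, 0.01 and 0.04 in delta controls. Its beta over delta difference was large (delta over beta -4.66 ± 0.74, adjusted p = 0.000128), and that of alpha over beta (-2.35 ± 0.63, adjusted p = 0.0121) did not hold when alpha control 3 was left out (adjusted p = 0.0595).

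The silent subunit Kcng3, which forms channels only together with pore subunits of other families, was at 3.26, 2.71 and 2.9 TPM in beta controls, 0.13, 0.33 and 0 in alpha and 0.05, 0.11 and 0.05 in delta controls. Beta libraries were separate from all others (alpha over beta -4.47 ± 0.72, adjusted p = 0.000197, and delta over beta -5.36 ± 0.76, adjusted p = 3.94e-05).

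In the EAG and ERG families, Kcnh6 was the most abundant gene in alpha controls and among the least in delta controls. It was at 23.6, 20.3 and 43.7 TPM in alpha controls, 12.5, 13.7 and 9.51 in beta controls and 0.18, 0.3 and 0.48 in delta controls. The delta libraries lay far below both others (-6.17 ± 0.47 against alpha, adjusted p = 3.78e-08, and -5.14 ± 0.45 against beta, adjusted p = 1.23e-07). Between alpha and beta the difference of 1.03 ± 0.36 (adjusted p = 0.0488) was lost without any 1 of 12 of the 18 libraries, among them all beta libraries and alpha controls 1 and 3 (adjusted p = 0.0501 to 0.247). Kcnh2, the gene of the cardiac hERG channel, showed no such pattern, at 19.1 ± 3.55, 13.3 ± 3.32 and 11.8 ± 4.98 TPM in alpha, beta and delta controls. Kcnh1 resembled Kcnh6 in delta cells, at 0.33, 0.56 and 0.55 TPM against 2.87 to 4.84 in the 6 other controls (-3.11 ± 0.29 for delta over beta, adjusted p = 2.14e-07).

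Several calcium-activated and auxiliary genes were lowest or highest in alpha cells. Kcnma1, the pore of the BK channel, was called in no control comparison, at 14.7 ± 1.42, 14.8 ± 1.54 and 11.8 ± 3.44 TPM in alpha, beta and delta controls. Kcnmb2, a BK subunit that makes the current inactivate, was at 2.52, 2.57 and 3.11 TPM in alpha controls, 8.76, 11.8 and 13 in beta and 13.2, 15.9 and 18.9 in delta controls. Kcnmb1, another BK subunit, was at 0.49, 0.54 and 0.54 TPM in alpha controls against 2.42 to 4.21 in the 6 others. Alpha libraries were below all others for both subunits (alpha over beta -2.27 ± 0.22, adjusted p = 1.19e-06, and -2.88 ± 0.42, adjusted p = 7.15e-05). Kcnmb1 overlaps Kcnip1 on the opposite strand, and the sources used here do not say whether counting used strand. Kcnip1, a calcium-binding subunit of Kv4 channels, was likewise lowest in alpha controls (2.42, 5.78 and 3.98 TPM against 13.3 to 22 in the 6 others, alpha over beta -2.65 ± 0.32, adjusted p = 1.05e-05). Its relative Kcnip3, which also acts as the transcriptional repressor DREAM, had the reverse order at 5.84, 4.55 and 7.18 TPM in alpha controls and at most 0.54 elsewhere (alpha over beta 5.72 ± 0.53, adjusted p = 5.51e-07). Kcnn3, the calcium-activated SK3 channel, was at 4.93, 5.07 and 4.76 TPM in alpha and 3.12, 4.65 and 3.61 in beta controls. In delta controls Kcnn3 was at 0.32, 0.65 and 0.62 TPM (delta over alpha -3.03 ± 0.26, adjusted p = 1.72e-07). Kcnab3, a cytoplasmic Kv subunit, was highest in beta controls (1.73, 1.49 and 1.26 TPM against 0.23 to 0.78 in the 6 others, alpha over beta -2.03 ± 0.41, adjusted p = 0.00153). Alpha control 2, the alpha library highest in beta cell markers, held the highest alpha control values of Kcnip1, Kcng3 and Kcnab3 (5.78, 0.33 and 0.78 TPM). Without it the alpha over beta differences were -3.13 ± 0.33 (adjusted p = 3.89e-06), -5.81 ± 0.88 (adjusted p = 0.000133) and -2.42 ± 0.47 (adjusted p = 0.00144).

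Inward rectifier genes also divided by cell type. Kcnj3 and Kcnj6 encode subunits of the G protein-gated GIRK channels, through which somatostatin and adrenaline receptors hyperpolarise the cell. Kcnj3 was at 6.37, 4.24 and 6.51 TPM in alpha controls, 1.02, 0.71 and 0.74 in delta and 0.03, 0.26 and 0.02 in beta controls. Kcnj6 was at 9.63, 8.18 and 14.6 TPM in alpha controls, 5.95, 6.52 and 5.06 in delta and 2.78, 3.01 and 2.53 in beta controls. Both genes ran alpha, delta, beta without overlap, with alpha over beta differences of 5.98 ± 0.48 (adjusted p = 1.58e-07) and 1.64 ± 0.20 (adjusted p = 1.23e-05). The delta over alpha call of Kcnj6 (-0.61 ± 0.19, adjusted p = 0.0331) was lost without delta control 2 or 3 or alpha control 1 or 3 (adjusted p = 0.0665 to 0.19). Kcnj2, a strong inward rectifier, was at 0.03 to 0.08 TPM in beta controls and 0.93 to 1.89 in alpha and delta controls (alpha over beta 4.34 ± 0.46, adjusted p = 2.11e-06). Kcnj12 of the same subfamily was the mirror image, with 203 counts in beta controls (3.21, 1.52 and 1.76 TPM), 6 in alpha and none in delta controls, at least 89.8-fold higher in beta than in delta. Kcnj4 was at 1.45, 3.06 and 1.56 TPM in delta controls and at most 0.26 in any other control (delta over beta 4.57 ± 0.71, adjusted p = 9.55e-05).

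The two-pore-domain genes held the highest single level. Kcnk16, which is largely restricted to the pancreas, was at 51.6, 50.2 and 77.4 TPM in alpha, 43.2, 50.5 and 31.9 in beta and 83.9, 91.9 and 52.9 in delta controls. Its delta libraries were above its beta libraries (0.82 ± 0.23, adjusted p = 0.0162), a call that was lost without delta control 1 (adjusted p = 0.0865) or beta control 3 (0.0796). Kcnk3, the acid-sensitive TASK-1 channel, was at 19.4, 17.9 and 27.6 TPM in alpha controls, 2.96, 3.6 and 2.1 in delta and 0.54, 0.56 and 0.2 in beta controls. It had the smallest adjusted p of the 76 genes between alpha and beta cells (5.49 ± 0.32, adjusted p = 5.75e-09), and delta libraries lay between the other 2 cell types without overlap. Kcnk1 differed less, at 9.94 ± 0.307, 7.67 ± 1.19 and 10.4 ± 3.04 TPM in alpha, beta and delta controls. Its delta over alpha difference (0.45 ± 0.15, adjusted p = 0.0439) was lost without any 1 of 14 of the 18 libraries, among them all controls (adjusted p = 0.0515 to 0.152), and that over beta (0.56 ± 0.15, adjusted p = 0.0134) without delta control 2 (0.0687) or beta control 1 (0.0696).

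**Figure D2:**
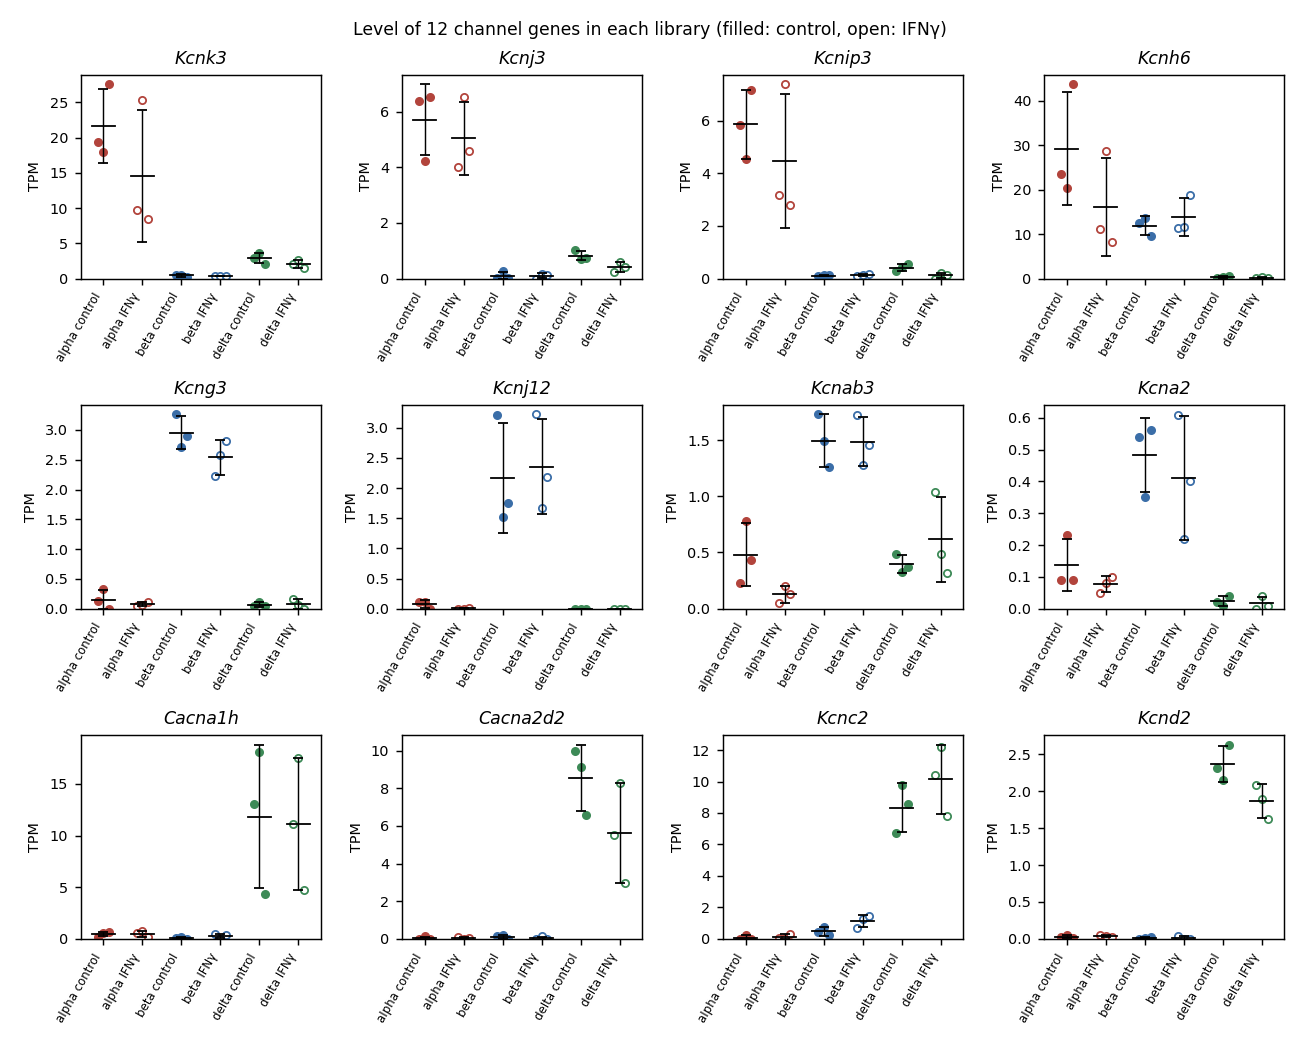
TPM of 12 channel genes in each library, by cell type and treatment (filled circles control, open circles IFNγ, colours cell types). Horizontal lines are means and bars the SD of 3 libraries. Kcnk3, Kcnj3, Kcnip3 and Kcnh6 are highest in alpha controls, Kcng3, Kcnj12, Kcnab3 and Kcna2 in beta libraries, and Cacna1h, Cacna2d2, Kcnc2 and Kcnd2 in delta libraries.

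The cell type differences were then measured in the IFNγ-treated libraries, which share none with the controls. There, 33 genes were called between alpha and beta (27.1% of all genes were), 47 between delta and beta (36.4%) and 34 between delta and alpha (16%). Of the 33 genes called between control alpha and beta cells, 32 kept their direction and 29 were called again (87.9% of either list), the exception in direction being Cacna2d1. Between delta and beta, 44 of 46 kept their direction and 40 were called again (87.0% of the control list and 85.1% of the IFNγ list), and Kcnip3 and Kcnt1 did not. All 41 genes called between delta and alpha kept their direction, and 31 were called again (75.6% and 91.2%). Over all genes called in controls, 67.3, 85.4 and 61.3% were called again in the same 3 comparisons. In single genes, Kcnk3 was at 9.74, 25.4 and 8.51 TPM in IFNγ-treated alpha cells against 0.38 to 0.42 in beta cells (5.16 ± 0.32, adjusted p = 8.76e-09), and Cacna1h at 11.1, 17.5 and 4.69 in delta cells against 0.04 to 0.45 in beta cells (6.84 ± 0.48, adjusted p = 8.71e-09). Kcng3 was at 2.23, 2.58 and 2.82 TPM in treated beta cells against 0 to 0.16 in the 6 others. Kcnh6 was not called between the treated ones (0.27 ± 0.35, adjusted p = 0.601).

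Only 2 of the 6 delta libraries share a file-name date with an alpha or beta library. With date as a term in the fit, 31, 38 and 35 genes were called in the 3 control comparisons (17.7, 18.8 and 18.8% of all genes were), and 18 in place of 47 between IFNγ-treated delta and beta cells (6.48% in place of 36.4% of all genes).

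**Figure D3:**
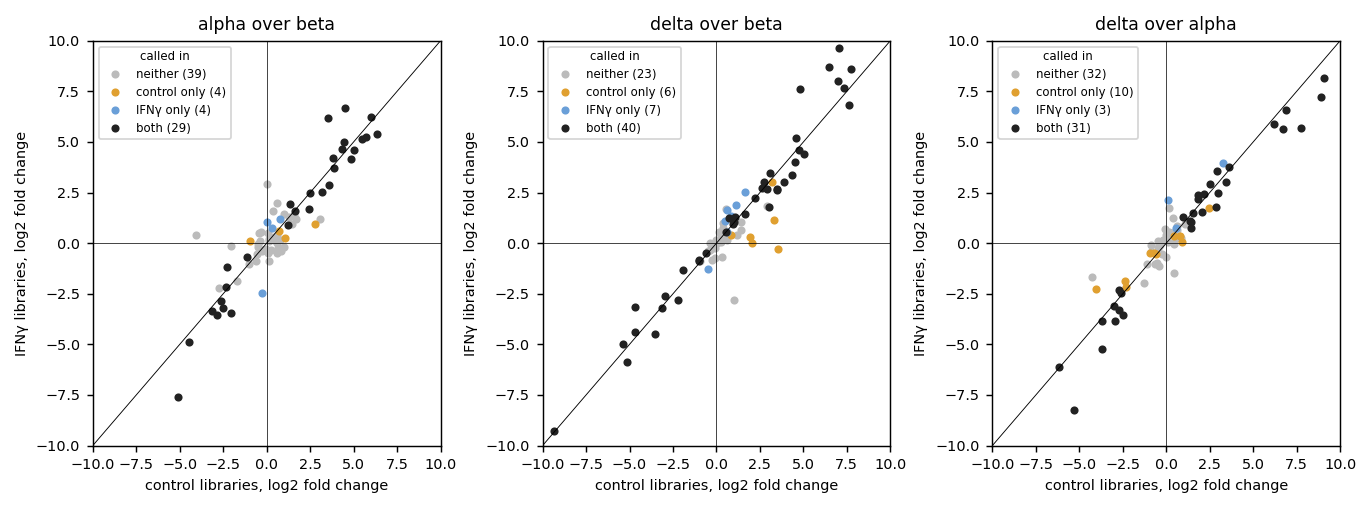
Log2 fold change between cell types of the 76 channel genes in control libraries (horizontal) and in IFNγ-treated libraries (vertical), for alpha over beta, delta over beta and delta over alpha. Each point is a gene, its colour tells in which libraries it was called, and the diagonal marks equal differences; genes called in both number 29, 40 and 31.

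In the edgeR fit of all libraries few channel genes were called with IFNγ, in no comparison at a larger share than over all genes. A fit without alpha IFNγ 2 called 16 in alpha cells, and 20.8% of all genes tested in that fit. With all libraries no member was called in alpha cells, where 0.975% of all genes tested were, none in beta cells (1.06%), and 1 in delta cells (1.39%, and 0.185% lower). In the average over the 3 cell types 2 were called (2.9% of all genes), Scn3a higher (2.23% of all genes) and Kcnk16 lower (0.669%). At an unadjusted p under 0.05 stood 15 genes in alpha, 5 in beta, 7 in delta cells and 17 in the average, where 21.6, 4.26, 11.7 and 16.7% of all genes did. DESeq2 called 2, 0, 2 and 5 genes in the same comparisons, and 4.96, 1.27, 2.27 and 4.89% of all genes to which it gave an adjusted p. The difference in response between 2 cell types was called for no channel gene and for no gene at all (unadjusted p under 0.05 for 8, 6 and 5 channel genes and for 13.3, 4.74 and 4.52% of all genes in the differences alpha minus beta, delta minus beta and delta minus alpha, smallest adjusted p = 0.369 for Kcnmb2 between alpha and beta).

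Scn3a, a sodium channel pore gene, stood at 9.76, 8.71 and 10.2 TPM in alpha controls and 14.6, 15.4 and 9.43 after IFNγ, at 2.53, 3.35 and 2.62 and then 3.42, 3.78 and 6.14 in beta cells, and at 13.4, 20.5 and 16.7 and then 21.1, 28.1 and 17 in delta cells. Treated and control libraries overlapped on this scale in alpha and delta cells. On counts the average log2 fold change was 0.52 ± 0.13 (adjusted p = 0.03), made up of 0.81 ± 0.22 in alpha (adjusted p = 0.0965), 0.22 ± 0.23 in beta (adjusted p = 1) and 0.52 ± 0.22 in delta cells (adjusted p = 0.357).

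Kcnk16 stood at 51.6, 50.2 and 77.4 TPM in alpha controls and 18.5, 51.6 and 21.7 after IFNγ, at 43.2, 50.5 and 31.9 and then 32.3, 42.2 and 46.2 in beta cells, and at 83.9, 91.9 and 52.9 and then 44.2, 58.4 and 33.7 in delta cells. Treated and control libraries overlapped in each cell type, in alpha cells through alpha IFNγ 2 alone. The average log2 fold change was -0.53 ± 0.13 (adjusted p = 0.0373), with -0.79 ± 0.23 in alpha (adjusted p = 0.121), -0.18 ± 0.23 in beta (adjusted p = 1) and -0.60 ± 0.23 in delta cells (adjusted p = 0.31). The summed TPM of the 5 polypeptide and ghrelin cell genes moved with it, from 4846, 6624 and 8978 in alpha controls to 2644, 7072 and 2634 after IFNγ, and from 10900, 13770 and 4903 to 2975, 6101 and 3676 in delta cells. In beta cells that sum was 566.8, 1150 and 162.6 and then 615.3, 811.4 and 1158. Its highest value among treated alpha libraries, like that of Kcnk16, was in alpha IFNγ 2. The markers of the sorted cells were summed in the same libraries. The 10 alpha cell markers summed to 77570, 60370 and 67520 in alpha controls. After IFNγ they were at 38620, 74230 and 56130, again highest in alpha IFNγ 2. The 9 delta cell markers went from 32500, 37720 and 14190 in delta controls to 8662, 16000 and 9934. The 10 beta cell markers were at 58580, 67000 and 75380 in beta controls and at 66140, 69610 and 54940 after IFNγ. The part of polypeptide and ghrelin cells in the Kcnk16 values was not tested.

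Kcnma1 had the smallest p in beta cells (-0.49 ± 0.18, adjusted p = 0.604).

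**Figure D4:**
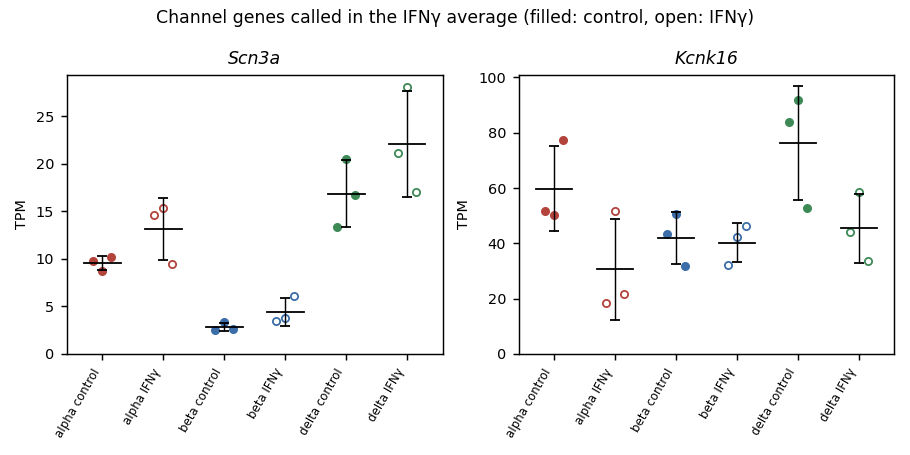
TPM of Scn3a and Kcnk16 in each library (filled circles control, open circles IFNγ, lines means, bars SD of 3 libraries). Scn3a is called higher and Kcnk16 lower in the average over cell types, and treated alpha libraries 1 and 3 of Kcnk16 lie at 18.5 and 21.7 TPM, below the controls at 50.2 to 77.4.

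The average log2 fold changes of Scn3a and Kcnk16 changed with GC offsets, with the libraries used and with date, and the Kcnk16 call held under GC offsets. The mean GC content of the transcripts was 42.3% for Scn3a and 56.9% for Kcnk16. As a measure of composition in a library, the median deviation from each gene's mean was taken over the 25% of genes lowest in GC, minus that over the 25% highest in GC. This log2 balance was 0.938 and 0.797 in alpha IFNγ 1 and 3, -0.516 in alpha IFNγ 2 and -0.713 to -0.441 in alpha controls. Delta IFNγ libraries ran from 0.404 to 0.815 against -0.094, -0.066 and 0.798 in delta controls. Beta IFNγ libraries were at -0.630, -0.353 and -0.377, and beta controls at -0.666, -0.270 and 0.186. The balance thus also differed between cell types, and treated delta and beta libraries did not overlap in it. Across the 76 genes, the IFNγ log2 fold change and GC content had Pearson's r of -0.55 in alpha, -0.04 in beta and -0.41 in delta cells (-0.48, 0.06 and -0.27 over all genes tested), a description across genes that share the same libraries. With per-library offsets for GC, Scn3a was at 0.29 (adjusted p = 0.171) and Kcnk16 at -0.32 (adjusted p = 0.0425).

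**Figure D5:**
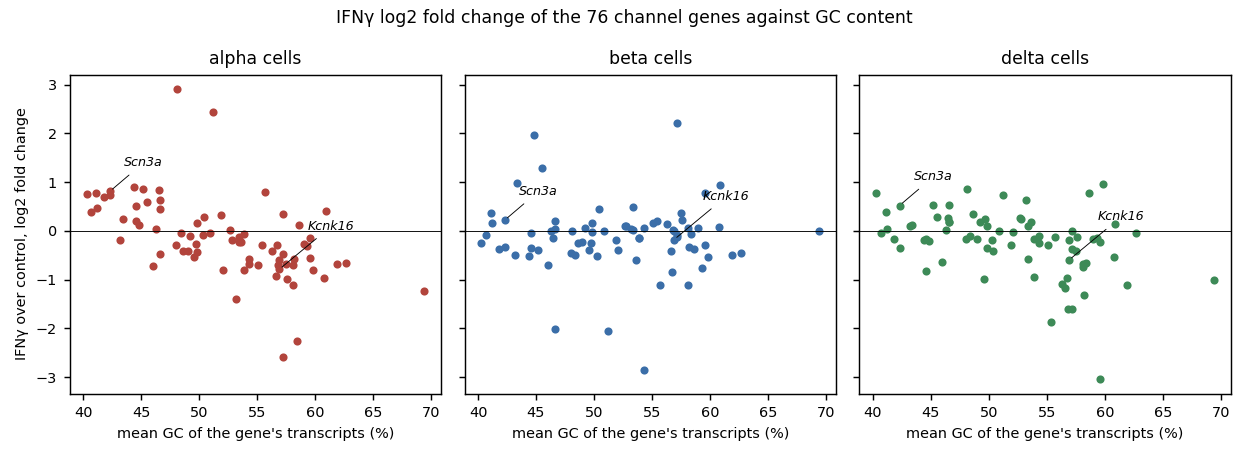
IFNγ over control log2 fold change of each of the 76 channel genes (vertical) against the mean GC content of its transcripts in percent (horizontal), by cell type. The points fall from left to right in alpha (Pearson's r = -0.55 across genes) and delta cells (r = -0.41) and lie nearly level in beta cells (r = -0.04).

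With the file-name date as a term, the average was 0.13 for Scn3a (adjusted p = 0.993) and -0.16 for Kcnk16 (adjusted p = 0.991). By cell type in that fit, Kcnk16 was at -0.55 ± 0.21 in alpha, -0.38 ± 0.21 in beta and 0.46 ± 0.41 in delta cells. Scn3a was at 0.63 ± 0.18, 0.03 ± 0.20 and -0.28 ± 0.36, and none of these values was called. On the 2 dates that hold both treatments, Scn3a had IFNγ over control log2 differences of 0.33 and 0.73 in alpha cells and -0.08 on either date in beta cells, and Kcnk16 had -0.25 and -0.87 in alpha and -0.55 and -0.21 in beta cells. No date holds both treatments of delta cells, so date and IFNγ cannot be told apart there. Leaving out 1 library at a time ended the call of Scn3a for 11 of the 18 libraries (adjusted p = 0.053 to 0.09) and that of Kcnk16 for 15 (0.0572 to 0.0925). A single library, alpha IFNγ 2, also set the count in alpha cells, since without it 16 channel genes were called there (20.8% of all genes were), 9 in the average (8.97%) and 5 in the alpha minus beta difference of responses (7.62%). Among the 16, Kcnk12 (-2.29), Cacna1g (-1.89), Kcnh2 (-1.45), Kcnh6 (-1.08) and Kcnk16 (-1.12) were lower and Scn3a (1.00), Kcnh7 (1.06) and Kcnq1ot1 (1.02) higher. The parts of composition and date in these values were not tested further.

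For comparison, a list of 77 other channels, ion carriers and channel partners was measured in the same way, and 64 of them passed the low-count filter. Among controls, 15 were higher and 16 lower in alpha than in beta cells (48.4%), 13 higher and 13 lower in delta than in beta (40.6%), and 19 higher and 8 lower in delta than in alpha (42.2%). Over all genes tested, 19.7, 20.5 and 19.7% were called in these comparisons. Dpp6, a partner that speeds the gating of Kv4 channels, was at 21.7 ± 1.22 TPM in delta, 2.29 ± 0.17 in alpha and 0.187 ± 0.0751 in beta controls (delta over beta 6.87 ± 0.39, adjusted p = 1.04e-09), in the cell type where the Kv4 pore gene Kcnd2 was highest. Fgf14, which binds sodium channels, was at 6.19 ± 1.71 TPM in delta, 2.24 ± 0.535 in alpha and 0.05 ± 0.07 in beta controls (delta over beta 6.81 ± 0.51, adjusted p = 2.51e-08). Trpm5, a calcium-activated cation channel, was at 19 ± 2.51 TPM in beta, 2.84 ± 2.16 in alpha and 1.01 ± 0.174 in delta controls (alpha over beta -3.28 ± 0.48, adjusted p = 6.36e-05). Trpa1 was at 3.34 ± 1.06 TPM in delta controls and at 0 in all alpha controls. Hcn4, a pacemaker channel gene, was at 2.48 ± 0.0954 TPM in beta and 0.35 ± 0.0985 in alpha controls (alpha over beta -3.05 ± 0.40, adjusted p = 2.1e-05). With IFNγ none of the 64 was called in alpha, beta or delta cells, where 0.975, 1.06 and 1.39% of all genes were. In the average 3.12% of the 64 were called, near the 2.9% of all genes. These were Trpc5, higher (2.08 ± 0.53, adjusted p = 0.0451), and Trpm5, lower (-1.19 ± 0.31, adjusted p = 0.0436). The level of Trpc5 was 0.01 and 0.04 TPM in control and treated alpha cells, listed at 0 and at 0.03 in beta cells, and 0.797 and 0.58 in delta cells. Trpm5 did not fall in beta cells, where it was highest, at 19 TPM in control and 24.1 in treated libraries. Its level went from 2.84 to 1.02 TPM in alpha cells and from 1.01 to 0.123 in delta cells.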

How the data were processed

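RNA-seq libraries of sorted alpha, beta and delta cells, control or IFNγ-treated, were analysed from 1 deposited table each of expected counts, TPM and FPKM per gene (FPKM was not used here). Per the study's methods, 5 ng of total RNA was made into strand-specific, randomly primed libraries with depletion of unwanted transcripts, and read in pairs of 75 bases. The authors aligned reads to GRCm38 with STAR 2.5.2b and estimated expected counts and TPM with RSEM, whose version and strand setting are not given in the sources used here. Their own tests used DESeq2 1.32.0 with a batch factor that the labels do not give. RSEM shares reads between similar genes by estimate. Of the 76 genes, 43 overlap a gene on the other strand and 17 one on the same strand.

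Expected counts, deposited by the authors, were rounded and tested with edgeR 4.0.16 (R 4.3.3): quasi-likelihood F-test, TMM scaling, filterByExpr with a minimum count of 10, and 1 mean for each of the 6 groups over all 18 libraries. Benjamini-Hochberg adjustment ran over 17338 genes, and a gene was called at an adjusted p under 0.05. Errors are standard errors (SE) of log2 fold changes from the F statistic, or SDs of 3 libraries. TPM, deposited by the authors and divided by transcript lengths estimated in each library, gave the levels, so TPM and count differences need not be equal. Ratios with 1 to 3 counts in a group carry an exact 95% interval, and a group at 0 was set to a floor of 3 counts over the group. Both cover counting error only. The script was tested on simulated counts.

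Members with values were named by a rule: genes with known roles in islet cells, the 6 largest called differences in each direction of each control comparison with at least 5 CPM and separate libraries, genes called with IFNγ, those beside the count limit, and the 4 of highest TPM among the genes selective for each cell type. Scn11a, Scn2a, Kcnc4 and the members named only in lists fall outside it and were named after their values were seen. The members and all lists were chosen with earlier results of these data known. One gene was left out of the rule, and it and the values of some other genes that count in the totals are not reported here. The 9 dates are those in the file names, and their meaning is not given. Alternatives were DESeq2 1.42.0, limma 3.58.1 (voom, and log2(TPM + 0.5) or log2(TPM + 0.1)), other scalings and filters, date, GC offsets, a replicate block, and single libraries left out.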

Additional observations from a re-analysis of the deposited data

How the results depend on the processing

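All 95 named gene values of the control cell type comparisons kept their direction under each of 30 alternatives, and 71 were called under each. Limma on log2(TPM + 0.5) lost 20 of these calls, leaving out the 2 controls highest in acinar RNA 11 and the date term 9. GC offsets lost 3 and DESeq2 0. The counts of called genes in the control comparisons stayed within 1.5 times, with ranges over single libraries left out of 26 to 34 (alpha and beta), 40 to 48 (delta and beta) and 34 to 43 (delta and alpha), and 27 to 37, 38 to 48 and 31 to 36 after IFNγ. With all libraries 19.7, 20.5 and 19.7% of all genes were called in these comparisons among controls, and 27.1, 36.4 and 16% after IFNγ. The shares of all genes with single libraries left out are not given here. With the date term 18 genes were called between IFNγ-treated delta and beta cells in place of 47 (6.48% in place of 36.4% of all genes), and the cause was not tested.

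The IFNγ counts moved more. DESeq2 called 4.96, 1.27, 2.27 and 4.89% of all genes to which it gave an adjusted p, in alpha, beta and delta cells and the average. Without alpha IFNγ 2, 20.8% of all genes were called in alpha cells, 8.97% in the average and 7.62% in the alpha minus beta difference. The shares of all genes in the other fits below are not given here. In alpha cells DESeq2 called 2 genes and the fit with no low-count filter 6, with 0 to 16 over single libraries left out (16 without alpha IFNγ 2). In beta cells the fit with no filter called 1, and leaving out single libraries gave 0 to 0. In delta cells DESeq2, no filter and the replicate block with GC offsets each called 2, whereas voom, limma on TPM with either pseudocount, the date term, GC offsets and leaving out the 2 acinar-high controls called 0, and single libraries left out gave 0 to 2. In the average DESeq2 called 5, no filter 8, the block with GC offsets 1, the fit without the acinar-high controls 1, and limma on TPM and the date term 0, with 0 to 9 over single libraries. In the difference of alpha and beta responses no filter called 1, and single libraries left out gave 0 to 5 (5 without alpha IFNγ 2), while the 2 other differences stayed at 0 to 0. Directions turned for 3 values that were not called: with the date term Kcnk16 in delta cells was 0.46 and Scn3a -0.28, and Scn3a in beta cells was -0.08 on each single date and ran from -0.06 (without beta IFNγ 3) to 0.35 over single libraries left out. The causes were not tested.

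Libraries of control and treated cells carry the same replicate numbers. The 9 same-numbered pairs had correlations of deviations from -0.194 to 0.279 (mean 0.103), and 11 of 18 libraries correlated best with their own number, so the numbers were not taken to pair the samples. With the replicate block 1 gene was called in delta cells, 2 in the average, and 32, 45 and 41 in the control comparisons. Without the block these counts were 1, 2, 33, 46 and 41, where 1.39, 2.9, 19.7, 20.5 and 19.7% of all genes were called. The shares of all genes with the block are not given here.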
